A study of Mus musculus with 6 samples.

Results

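The matrix metalloproteinases (MMP), the membrane-anchored and secreted proteases of the ADAM and ADAMTS families and the tissue inhibitors of metalloproteinases (TIMP) were followed in cells sorted as cancer stem cells from squamous cell carcinomas of mouse skin, with and without Sfrp1. They were taken by symbol, as every array feature whose platform annotation gives 1 gene symbol beginning with Mmp, Adam, Adamts or Timp and a number, and 69 of the 30142 genes compared were found this way: 22 MMP, 25 ADAM, 18 ADAMTS and 4 TIMP genes. Each of the 69 had 1 feature. The features of Adam12 and Adam34 carry a further symbol and were left out. The rule itself used no measured value, but the gene families were chosen with earlier results of these data known.

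The Sfrp1_KO group holds 3 samples from mice labelled Sfrp1-/-, which lack the secreted Wnt antagonist, and the WT group holds 3 samples from wild-type mice. Mice of both genotypes received the mutagen DMBA on 3 days, PD-23, 25 and 27 in the labels, and afterwards the tumour promoter TPA, a phorbol ester, 2 times weekly over 30 to 40 weeks. Cells that lacked lineage markers and carried Epcam, α6 integrin and CD34 were sorted from the carcinomas, and each sample was hybridised to 1 whole-transcript MTA 1.0 array. The age of the mice at collection, the deleted part of Sfrp1 and whether each sample came from its own animal are not given in the labels, so each p-value reflects only how far these samples lie apart, and that distance may be technical.

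MMPs are zinc proteases that are secreted or membrane-bound as inactive precursors and cut collagens, gelatins, laminins and other matrix proteins. ADAMs mostly cut cell-surface proteins and release growth factors, cytokine receptors and adhesion molecules, and ADAMTS enzymes cut proteoglycans, procollagens and other matrix proteins. TIMPs bind the active site of these enzymes. In skin carcinomas the collagenases and stromelysins are made by tumour keratinocytes as well as by stromal cells, and several of their promoters are classical targets of TPA through the transcription factor AP-1.

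Values are log2 signals as deposited. Their maximum of 19.93 exceeds what 16 bits can hold, so some step moved or widened the scale, and the sources used here do not say which. Differences are therefore given in log2 units and not as folds. A difference is Sfrp1_KO minus WT with the standard error (SE) of limma, and a gene is called at an adjusted p under 0.05 over all 30142 genes. Background was set on each array at the brightest of 23 probe sets without a target, 4.82 to 5.10 over the 6 arrays. It was lowest on WT replicate 3 (4.82, against 4.98 to 5.10 on the others), so a gene passes there at a lower signal. Sfrp1 itself stood at 5.12 ± 0.03 in Sfrp1_KO and at 5.75 ± 0.30 in WT (SD, n = 3 each), and its difference of -0.64 (SE 0.15) was not called (adjusted p = 0.0969). Of 12 keratinocyte markers 10 were called lower in Sfrp1_KO, where 1.45% of all genes were. The mean level of the 12 was 5.76 to 5.85 in Sfrp1_KO, against 9.99 to 10.58 in WT. The sort marker Epcam was at 4.89 to 5.22 in Sfrp1_KO, around background, against 6.65 to 8.69 in WT. Itga6, the gate's integrin, fell as well (-1.89, adjusted p = 0.0292), and Cd34 was not called (1.57, adjusted p = 0.0714). All differences below are between arrays that differ in these markers.

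Of the 69 genes 8 rose in Sfrp1_KO and none fell. The risers were the inhibitors Timp3 and Timp2, the gelatinase gene Mmp2, the stromelysin gene Mmp11, the ADAM genes Adam19 and Adam33 and the ADAMTS genes Adamts7 and Adamts14. Over all genes limma called 3.28%, 1.83% higher and 1.45% lower, and 8 of 69 is 11.6%. At an unadjusted p under 0.05, 13 of the 69 were higher and 5 lower, where 6.84% and 7.54% of all genes were. The 69 differences had a median of 0.01, and all genes a median of -0.01. The 3 Sfrp1_KO arrays lay above all WT arrays for 15 of the 69 genes, where 9.1% of all genes did, and below them for 7, where 10.8% did. The exact permutation p of every such gene is 0.1, the smallest that 3 arrays against 3 allow. In sorted bulk samples, fewer cells that express a gene and less RNA per cell cannot be told apart.

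Of the 69 genes 41 stayed at or under background on all 6 arrays: 11 MMP, 16 ADAM and 13 ADAMTS genes and Timp4. None of the 41 was called. Their differences ran from -0.33 for Mmp1b to 0.19 for Adamts6, and a gene at that level has no measured difference on this array. Genes with roles in the testis or epididymis made up 12 of the 41. The other 28 were above background on at least 1 array, and 11 of them on every array.

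**Figure D1:**
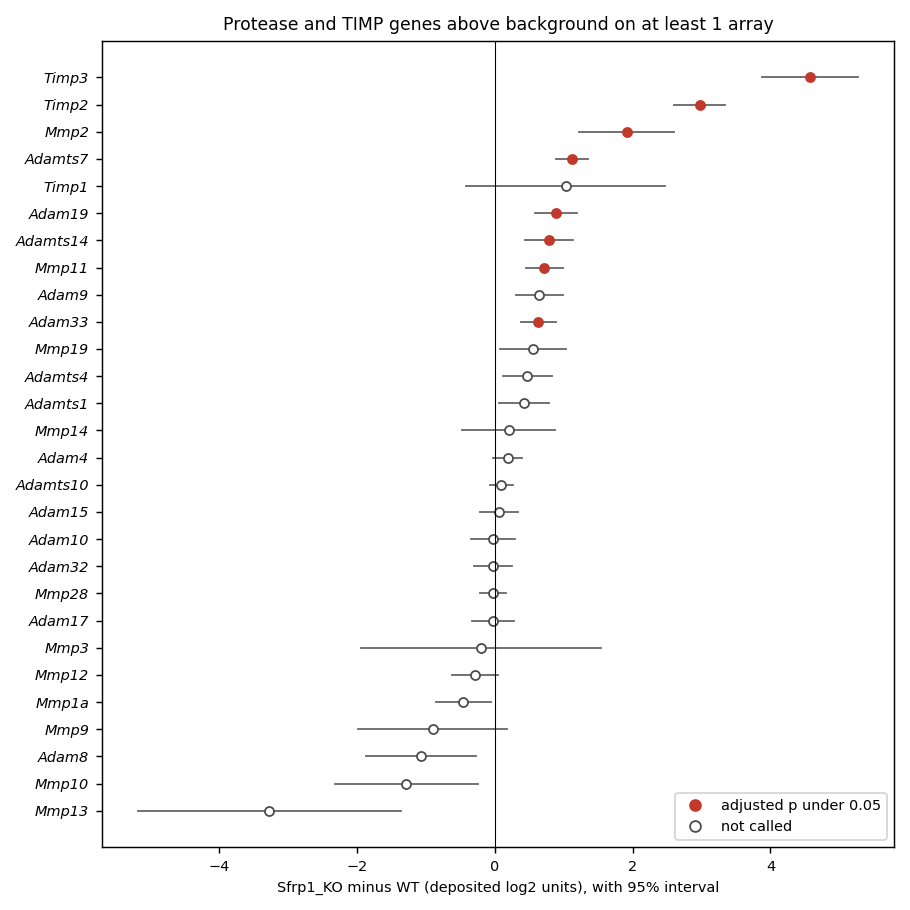
Difference (Sfrp1_KO minus WT, deposited log2 units, horizontal axis) of the 28 protease and TIMP genes above background on at least 1 array, each as a point with its 95% interval from limma. Filled points passed an adjusted p under 0.05. The 8 called genes lie between 0.63 and 4.58, and the widest intervals are those of Mmp13, Mmp3 and Timp1.

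The inhibitors held the largest difference. Timp3, a TIMP that stays bound to the matrix and inhibits ADAM17 and several ADAMTS enzymes besides MMPs, was at 8.71, 9.85 and 8.99 in Sfrp1_KO, against 4.42, 4.63 and 4.77 in WT. All WT arrays were at or under background and all Sfrp1_KO arrays far above it. By the group means the difference was at least 4.22 (measured means 9.18 and 4.61, measured difference 4.58, SE 0.29, adjusted p = 0.00183). The limma interval of the measured difference was 3.88 to 5.28. A difference is written "at least" where all arrays of a genotype lie at or under background, and is then taken from the background of those arrays to the mean of the genotype that was measured. Such a figure allows for the unmeasured low level only. It carries no sampling error, so the true difference can be smaller. Timp3 overlaps Syn3, and Syn3 was under background on all 6 arrays (3.91 to 4.12 in Sfrp1_KO, 3.87 to 3.97 in WT).

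Timp2, which inhibits MMPs and also takes part in the activation of pro-MMP2 at the cell surface, was at 9.77, 10.29 and 10.10 in Sfrp1_KO, against 6.89, 7.17 and 7.18 in WT. The groups lay well apart, and Timp2 rose by 2.97 (SE 0.16, adjusted p = 0.00107). Timp1, an inhibitor induced in wounds and inflammation, was at 7.91, 6.84 and 6.01 in Sfrp1_KO, against 5.52, 6.93 and 5.24 in WT. These groups overlapped, with WT replicate 2 above Sfrp1_KO replicates 2 and 3. Timp1 was not called (1.03, SE 0.60, 95% interval -0.42 to 2.47, adjusted p = 0.555). Timp4, a TIMP known mainly from heart and fat, was under background on all arrays.

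To show the region upstream of the pair that rose most, the last 100 bases before the annotated start are printed here, 5′ to 3′ (RefSeq, GRCm38.p6).
Timp3 (chr10:86300312-86300411, plus strand): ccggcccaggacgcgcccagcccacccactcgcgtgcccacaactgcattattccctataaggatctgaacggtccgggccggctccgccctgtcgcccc
Timp2 (chr11:118355412-118355511, minus strand): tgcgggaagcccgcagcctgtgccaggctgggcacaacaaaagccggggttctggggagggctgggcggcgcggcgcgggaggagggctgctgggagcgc
Neither stretch, nor the whole window of 250 bases before to 50 bases after the start, holds the AP-1 letters that are shown for the MMP genes below.

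**Figure D2:**
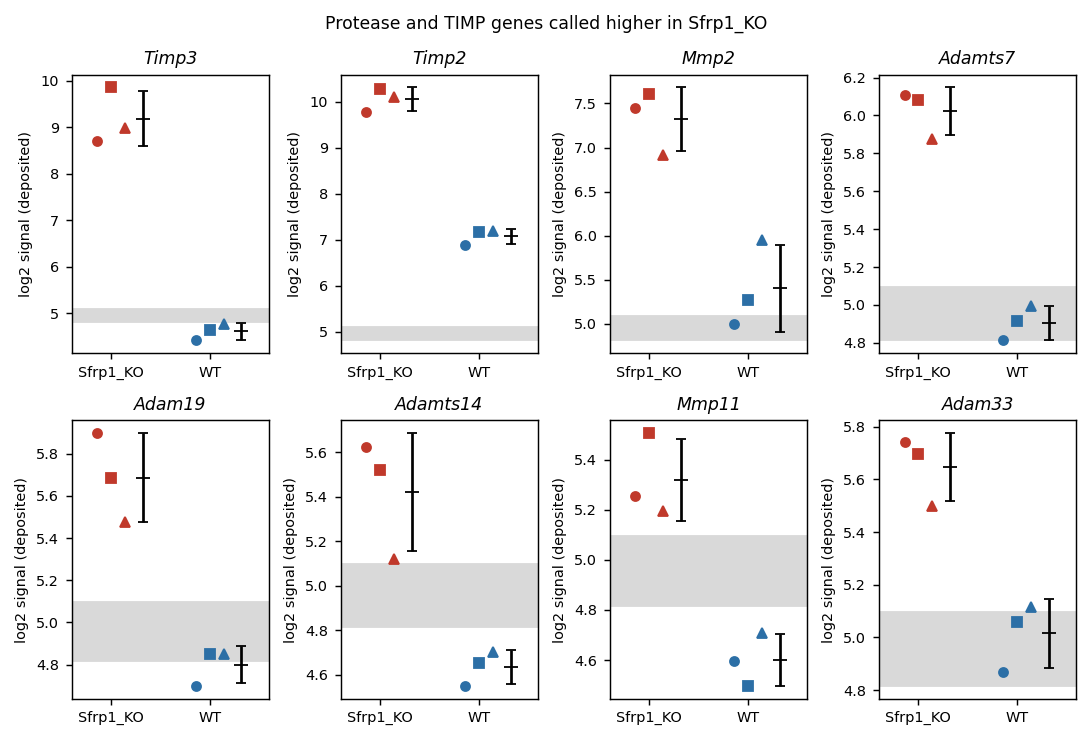
Deposited log2 signal (vertical axis, scaled to each gene) of the 8 called genes, with Sfrp1_KO arrays on the left and WT arrays on the right of each panel. Circles, squares and triangles are replicates 1, 2 and 3, bars are mean ± SD (n = 3), and the grey band spans the background levels of the 6 arrays. All 3 Sfrp1_KO arrays lie above all 3 WT arrays in every panel, and in WT only Timp2 is above the band on all arrays.

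Both gelatinases, which cut denatured collagen and type IV collagen, were measured, and their values lay in opposite directions. Mmp2 was at 7.45, 7.60 and 6.91 in Sfrp1_KO, against 5.0, 5.27 and 5.95 in WT. Its groups did not overlap and Mmp2 rose by 1.92 (SE 0.29, adjusted p = 0.0220). The call ended without WT replicate 1 or 2 or Sfrp1_KO replicate 1 or 2 (adjusted p = 0.0513, 0.0687, 0.0915 and 0.104), while the difference stayed between 1.71 and 2.19 without any 1 array. Mmp9 was at 4.66, 4.50 and 4.68 in Sfrp1_KO, under background on all arrays, against 5.12, 6.63 and 4.81 in WT. WT replicate 2 alone was clearly above background, and Mmp9 was not called (measured difference -0.90, adjusted p = 0.454). The value rests on that array: without it the measured difference was -0.35 (adjusted p = 0.312).

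Mmp11, stromelysin 3, known from stromal fibroblasts of carcinomas, was at 5.26, 5.51 and 5.19 in Sfrp1_KO, against 4.60, 4.50 and 4.71 in WT. It was above background in Sfrp1_KO alone and rose by at least 0.36 (measured difference 0.72, SE 0.11, adjusted p = 0.0252). Mmp14, the membrane-type enzyme that activates pro-MMP2 together with TIMP2, was well above background on all arrays, at 9.60, 9.35 and 8.77 in Sfrp1_KO, against 9.50, 8.91 and 8.72 in WT. Its groups overlapped throughout, and the difference was 0.20 (95% interval -0.47 to 0.87, adjusted p = 0.873). The other 4 membrane-type MMP genes, Mmp16, Mmp17, Mmp24 and Mmp25, were under background on all arrays. Mmp19, an MMP of many tissues, was at 4.66, 5.22 and 5.33 in Sfrp1_KO, against 4.42, 4.38 and 4.77 in WT, and was not called (adjusted p = 0.273). Mmp28, an epidermal MMP also named epilysin, was at 4.98, 5.02 and 4.90 in Sfrp1_KO, against 5.03, 4.93 and 5.03 in WT. It was above background on WT replicate 3 alone, where background was lowest.

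The remaining MMP genes above background lie in a cluster on chromosome 9. There 10 MMP genes follow each other with no other protein-coding gene of the RefSeq table between them, in the order Mmp13, Mmp12, Mmp1b, Mmp3, Mmp1a, Mmp10, Mmp8, Mmp27, Mmp20 and Mmp7. None of the 10 was called by limma, and 4 were lower at an unadjusted p under 0.05, as were 7.54% of all genes. In 5 of them (Mmp13, Mmp12, Mmp1b, Mmp1a and Mmp10) every Sfrp1_KO array lay below every WT array, where 10.8% of all genes did, and in none above, where 9.1% did. Of these 5, Mmp1b was under background on all arrays and Mmp12 above it on 1. The median difference of all 10 cluster genes was -0.25.

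Mmp13, collagenase 3, which cuts fibrillar collagen, was at 5.0, 4.74 and 5.08 in Sfrp1_KO, against 8.31, 9.90 and 6.45 in WT. Every WT array was clear of background and the Sfrp1_KO arrays were around it, but WT arrays differed among themselves by more than 3 log2 units. The difference of -3.28 (SE 0.79, 95% interval -5.18 to -1.37) was the largest downward among the 69 genes and did not pass (adjusted p = 0.0994). Without WT replicate 3, the lowest WT array, it was -4.16 and passed (adjusted p = 0.0206). Without WT replicate 2, the highest, it was -2.44 (adjusted p = 0.104), and without Sfrp1_KO replicate 2 the adjusted p was 0.308. Mmp10, stromelysin 2, known from migrating keratinocytes at wound edges, was at 5.24, 4.94 and 4.86 in Sfrp1_KO, against 7.07, 6.54 and 5.29 in WT. WT replicate 3 was again the lowest of its group. Mmp10 was not called (-1.29, SE 0.43, adjusted p = 0.230), and was called without WT replicate 3 (-1.79, adjusted p = 0.0213). Without WT replicate 1 it was -0.90 (adjusted p = 0.363), and without Sfrp1_KO replicate 2 the adjusted p was 0.488.

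Mmp3, stromelysin 1, was far above background on all arrays, at 9.19, 7.39 and 6.54 in Sfrp1_KO, against 7.86, 8.76 and 7.13 in WT. The genotypes overlapped over most of their ranges, and the SD within a genotype was 1.35 in Sfrp1_KO and 0.82 in WT. Mmp3 had a difference of -0.20 (95% interval -1.94 to 1.54, adjusted p = 0.965), an interval that holds more than 1 log2 unit either way. Mmp1a, a mouse interstitial collagenase, was at 4.77, 4.46 and 4.80 in Sfrp1_KO, against 5.40, 5.17 and 4.83 in WT. It was above background in WT alone, and was not called (adjusted p = 0.275). On WT replicate 3, where background was lowest, it passed narrowly (4.83 against 4.82). Mmp1a and Mmp1b are close copies of each other and may share probe signal. Mmp12, the macrophage elastase, was at 4.68, 4.39 and 4.62 in Sfrp1_KO, against 4.76, 5.09 and 4.69 in WT, and above background in WT replicate 2 alone. Mmp8, the neutrophil collagenase, Mmp7, matrilysin, Mmp20, the enamel protease, and Mmp27 were under background on all arrays.

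The promoters of this cluster were read because TPA acts on MMP genes through AP-1, whose motif was searched as TGAGTCA and TGACTCA, each the reverse complement of the other, from 250 bases before to 50 bases after each annotated start. All 10 genes of the cluster had a window in the RefSeq table, and 7 held the motif, all but Mmp8, Mmp27 and Mmp20. Among all genes with a window 5.95% held it. The last 100 bases before the start of these 7 genes are printed 5′ to 3′ (RefSeq, GRCm38.p6), with the AP-1 letters in capitals.
Mmp13 (chr9:7272414-7272513, plus strand): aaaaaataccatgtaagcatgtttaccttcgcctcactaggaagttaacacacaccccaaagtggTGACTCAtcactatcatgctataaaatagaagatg
Mmp12 (chr9:7347274-7347373, plus strand): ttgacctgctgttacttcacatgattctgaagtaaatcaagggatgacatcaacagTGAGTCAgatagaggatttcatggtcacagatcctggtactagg
Mmp1b (chr9:7388027-7388126, minus strand): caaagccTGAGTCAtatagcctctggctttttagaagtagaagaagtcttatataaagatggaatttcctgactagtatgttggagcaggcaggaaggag
Mmp3 (chr9:7445722-7445821, plus strand): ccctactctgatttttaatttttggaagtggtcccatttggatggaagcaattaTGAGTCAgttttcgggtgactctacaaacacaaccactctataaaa
Mmp1a (chr9:7464041-7464140, plus strand): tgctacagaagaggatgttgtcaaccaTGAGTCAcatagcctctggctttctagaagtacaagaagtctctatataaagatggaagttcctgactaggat
Mmp10 (chr9:7502242-7502341, plus strand): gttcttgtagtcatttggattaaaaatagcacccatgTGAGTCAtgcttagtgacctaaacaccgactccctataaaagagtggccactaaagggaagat
Mmp7 (chr9:7691990-7692089, plus strand): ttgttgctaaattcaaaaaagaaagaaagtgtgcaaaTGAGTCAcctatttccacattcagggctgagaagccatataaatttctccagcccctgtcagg
The first base of the motif lies at -35 from the start in Mmp13, -44 in Mmp12, -93 in Mmp1b, -46 in Mmp3, -73 in Mmp1a and -63 in both Mmp10 and Mmp7. The motif is present in Mmp13, Mmp10 and Mmp1a, which were above background on all WT arrays, in Mmp12, above background on 1 array, in Mmp3, whose genotypes overlapped, and in Mmp1b and Mmp7, which were under background throughout and have no measured difference. A match is a description of the letters and not of binding. Of all 69 genes 41 had a window and 9 held the motif, the other 2 being Adam19, at -131, and Adam29, at -89. Among the 8 called genes 5 had a window, and Adam19 was the 1 with a match. A TCF/LEF motif, searched as ATCAAAG and CTTTGAT, both strands, was found in 1 of the 41, Mmp7, against 4.29% of all genes with a window.

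**Figure D3:**
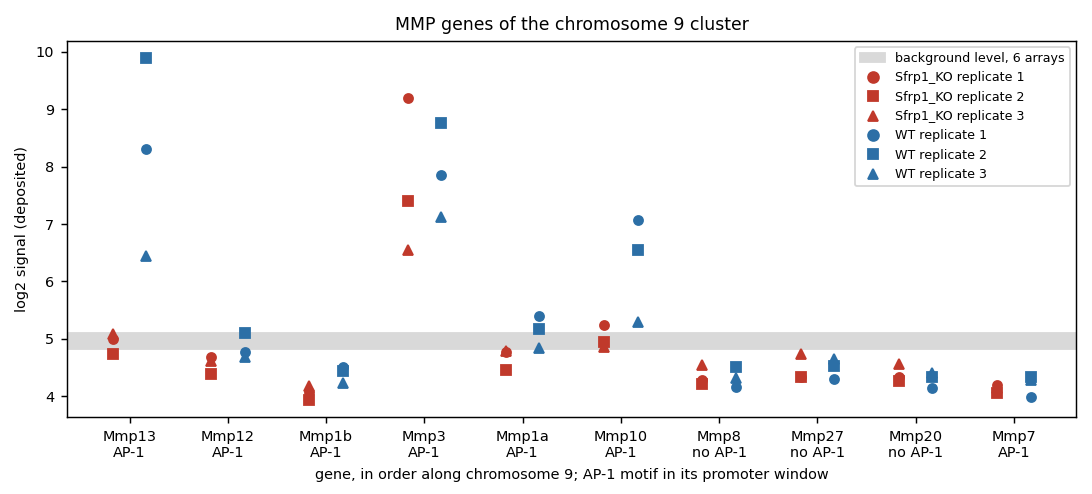
Deposited log2 signal (vertical axis) of the 10 MMP genes of the chromosome 9 cluster in their order along the chromosome, Sfrp1_KO arrays left and WT arrays right of each position, with the background levels as a grey band. The line under each name says whether its promoter window holds the AP-1 motif. Mmp13 and Mmp10 are above the band in WT and around it in Sfrp1_KO, Mmp3 is above it on all arrays, and Mmp8, Mmp27, Mmp20 and Mmp7 are below it.

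Several of these genes varied widely between arrays of a genotype, and the high and low arrays were often the same. In WT, replicate 3 had the lowest value of Mmp13, Mmp10, Mmp3, Mmp9, Timp1 and Adam8, while replicate 2 had the highest of Mmp13, Mmp3, Mmp9 and Timp1. In Sfrp1_KO, replicate 1 had the highest and replicate 3 the lowest value of Mmp3, Timp1, Mmp10, Adam8 and Mmp14. Of the 8 called genes, Adamts7, Adam19, Adamts14 and Adam33 also had their highest Sfrp1_KO value in replicate 1 and their lowest in replicate 3. The SD of the 8 within a genotype was at most 0.60, in Timp3.

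**Figure D4:**
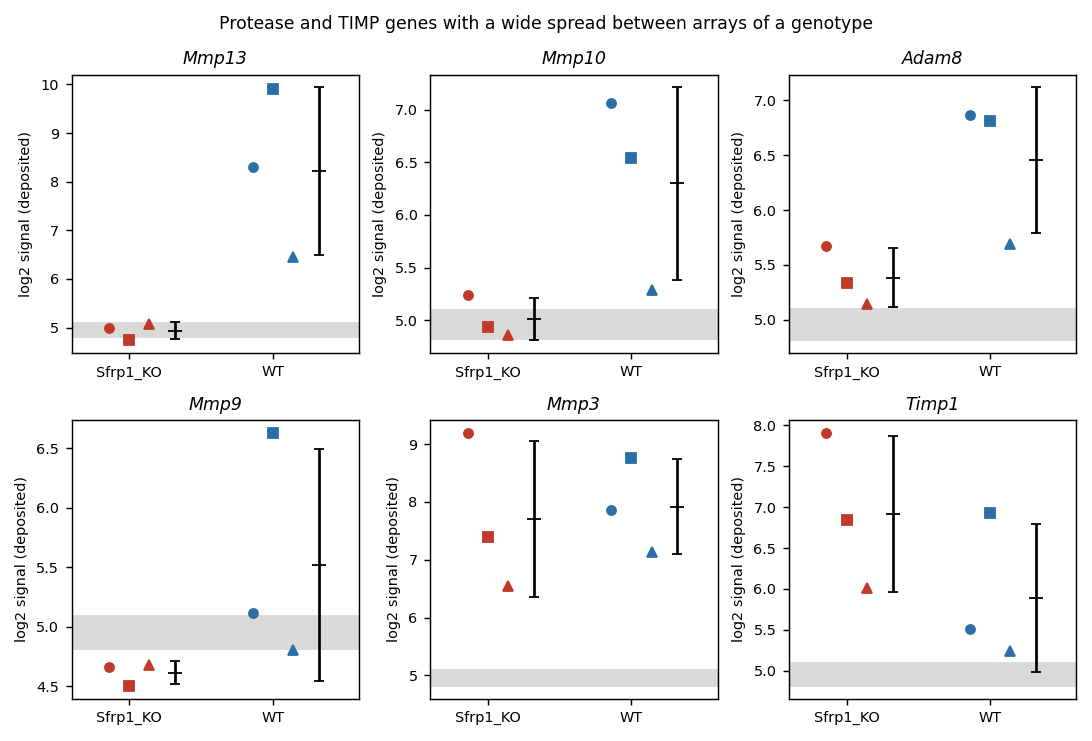
Deposited log2 signal (vertical axis, scaled to each gene) of 6 genes with a wide spread within a genotype, with Sfrp1_KO on the left and WT on the right of each panel, circles, squares and triangles for replicates 1, 2 and 3, mean ± SD (n = 3) as bars and the background levels as a grey band. WT replicate 3 is the lowest WT array in all 6 panels, and Sfrp1_KO replicate 1 is the highest Sfrp1_KO array for Mmp10, Adam8, Mmp3 and Timp1.

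Among the ADAM genes with protease activity outside the reproductive tract, 2 of 8 rose, where 1.83% of all genes did. Adam19, a sheddase of neuregulins known from heart development, was at 5.90, 5.68 and 5.48 in Sfrp1_KO, against 4.70, 4.85 and 4.85 in WT. In WT it was above background on replicate 3 alone, where background was lowest. Adam19 rose by 0.89 (SE 0.12, adjusted p = 0.0185), a difference that starts from around background. Adam33, expressed mainly by mesenchymal cells, was at 5.74, 5.70 and 5.50 in Sfrp1_KO, against 4.87, 5.06 and 5.12 in WT, around background, and rose by 0.63 (SE 0.11, adjusted p = 0.0336). Adam9, a widely expressed sheddase, was at 6.26, 6.36 and 5.96 in Sfrp1_KO, against 5.64, 5.35 and 5.67 in WT. Its groups did not overlap, yet it missed the threshold (0.64, SE 0.14, adjusted p = 0.0777) and passed after quantile normalization once more (0.68, adjusted p = 0.0294) and with array weights (0.70, adjusted p = 0.0368).

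Adam10 and Adam17, the main sheddases of Notch receptors, EGF-like ligands and TNF, were above background on all arrays. Adam10 was at 7.24, 7.71 and 7.41 in Sfrp1_KO, against 7.46, 7.41 and 7.56 in WT (-0.02, 95% interval -0.34 to 0.30, adjusted p = 0.983). Adam17 was at 6.12, 6.33 and 6.24 in Sfrp1_KO, against 6.50, 6.15 and 6.13 in WT (-0.03, 95% interval -0.33 to 0.27, adjusted p = 0.973). Both sheddases overlapped between the genotypes, and the intervals leave room for a difference in either direction. Adam8, an ADAM of leukocytes and activated cells, was at 5.68, 5.34 and 5.14 in Sfrp1_KO, against 6.87, 6.81 and 5.69 in WT, with no overlap. It was not called (-1.07, SE 0.33, adjusted p = 0.192), and was called without WT replicate 3 (-1.45, adjusted p = 0.0247). Without WT replicate 1 it was -0.87 (adjusted p = 0.355), and without Sfrp1_KO replicate 2 the adjusted p was 0.441. Adam11, Adam22 and Adam23, which lack protease activity and act in the nervous system, were under background on all arrays. Of 14 ADAM genes of the reproductive tract, Adam4 alone was above background on all arrays, at 5.31, 5.27 and 5.48 in Sfrp1_KO, against 5.14, 5.23 and 5.13 in WT (0.18, adjusted p = 0.436). Adam4 overlaps Cox16, whose transcripts may share its signal. Adam32 was above background on WT replicate 3 alone, where background was lowest.

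Among the ADAMTS genes 2 of 18 rose, where 1.83% of all genes did. Adamts7, which cuts the cartilage matrix protein COMP, was at 6.11, 6.08 and 5.88 in Sfrp1_KO, against 4.81, 4.91 and 4.99 in WT. The WT arrays were around background and the Sfrp1_KO arrays well above it, with little spread in either group. In WT it was above background on replicate 3 alone, where background was lowest. Adamts7 rose by 1.12 (SE 0.10, adjusted p = 0.00451) and passed without any 1 array (adjusted p up to 0.0291). Adamts14, a procollagen N-proteinase, was at 5.62, 5.52 and 5.12 in Sfrp1_KO, against 4.55, 4.65 and 4.70 in WT, and rose by at least 0.46 (measured difference 0.79, SE 0.14, adjusted p = 0.0413). Of the proteoglycan-cutting enzymes, Adamts1 was at 6.0, 6.04 and 6.47 in Sfrp1_KO, against 5.89, 5.62 and 5.75 in WT (0.42, SE 0.15, adjusted p = 0.265). Adamts4, aggrecanase 1, was at 5.34, 5.0 and 4.77 in Sfrp1_KO, against 4.51, 4.59 and 4.59 in WT, and was above background in Sfrp1_KO replicate 1 alone (adjusted p = 0.197). Neither was called, although the arrays of both separated. Adamts10, an enzyme linked to fibrillin microfibrils, was at 5.0, 4.99 and 4.99 in Sfrp1_KO, against 4.88, 4.94 and 4.89 in WT. It was above background on WT replicate 3 alone, where background was lowest. Adamts5, aggrecanase 2, and the versican-cutting Adamts9, Adamts15 and Adamts20 were under background on all arrays.

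Only 3 of the 8 calls, Timp3, Timp2 and Adamts7, held in each of the 6 fits without 1 array. Adam19, Adam33 and Adamts14 were called in 1 of the 6, without Sfrp1_KO replicate 3, as was Mmp11, and Mmp2 in 2. With the replicate number as a block the same 3 were called, and Adam19, Mmp2, Mmp11, Adamts14 and Adam33 had adjusted p of 0.0735, 0.0886, 0.0971, 0.109 and 0.114. The direction of all 8 stayed the same under each alternative that was tried.

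Markers of some other cell types differed between the arrays as well. The fibroblast list had 9 measured markers with a mean level of 6.39 to 7.07 in Sfrp1_KO, against 5.35 to 6.60 in WT. Of these, 2 of 9 were called higher (Pdgfrb and Thy1), where 1.83% of all genes were. Of the markers not called, Col1a2, Col3a1 and Dcn were higher, and Fap was under background on all arrays. Col1a1 (-0.45) and Dpt (-0.11), above background on all arrays, were lower. Lum was lower too (measured difference -0.59), above background on WT replicate 3 alone. WT replicate 3 stood at 6.60 on this list, above Sfrp1_KO replicates 1 and 3. In that array Dcn was at 10.56, while Pdgfrb and Thy1, the called markers, were at 5.25 and 5.62, near the other WT arrays. The macrophage list of 9 markers had a mean of 4.88 to 5.53 in Sfrp1_KO, against 4.52 to 4.75 in WT, with none called and 6 of 9 higher without overlap, where 9.1% of all genes were. Among these, Lyz2 was at 5.96 to 7.94 in Sfrp1_KO, against 4.69 to 5.11 in WT. C1qb had a measured difference of 1.30 and C1qa of 0.85, both under background on all WT arrays. C1qc, also among these, was above background on Sfrp1_KO replicate 1 alone. Csf1r and Mrc1, the rest of these, were under background on all arrays, as was Adgre1. Cd68, above background on all arrays, overlapped and was the only marker of the list lower in Sfrp1_KO (-0.26, adjusted p = 0.893). The neutrophil list of 7 had a mean of 4.12 to 4.53 in Sfrp1_KO, against 4.81 to 5.09 in WT, with none called and 4 of 7 lower without overlap, where 10.8% of all genes were. S100a8 had a measured difference of -1.59 and S100a9 of -1.54. Cxcr2 (measured difference -0.52) was above background on WT replicate 3 alone. Ly6g, the last of the 4, was under background on all arrays, as were Csf3r, Elane and Mpo. The keratinocyte list, given above, was far lower in Sfrp1_KO. No marker was called in the endothelial list of 7, the pericyte and smooth muscle list of 6 or the melanocyte list of 5. Cdh5 was at 7.15, 6.70 and 4.88 in Sfrp1_KO, against 4.22, 4.36 and 5.16 in WT (1.66, adjusted p = 0.264). The other endothelial markers were lower in Sfrp1_KO, and under background on all arrays but WT replicate 3. Markers of mast cells and of T and NK cells were under background on all arrays. Beyond these values, the part of such cells in the differences was not tested.

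Genes that act with the proteases were read from 6 lists, for which counts stand beside the 1.83% and 1.45% of all genes called. Over the 6 lists 27 genes were called, of which 12 stayed called in every fit without 1 array: Plat, St14, Thbs2, Rarres1, Btc, Il6ra, Cdh1, Sdc1, Vcan, Fn1, Nid1 and Fbln1. Another 9 were called in 2 to 5 of these 6 fits, and 6 in 1 of them: Kitl, Notch1, Lrp1, Pcolce, Sh3pxd2b and Col17a1. Of 17 genes for the activation of MMP precursors 2 rose and 1 fell. Plat, tissue plasminogen activator, rose by 1.81 (SE 0.15) and Ctsl, cathepsin L, by 3.18 (SE 0.54). St14, which encodes the epithelial serine protease matriptase, fell (-1.98, SE 0.13). Plaur, the urokinase receptor, was at 9.66, 8.68 and 7.16 in Sfrp1_KO, against 7.73, 7.16 and 6.40 in WT, and was not called (adjusted p = 0.416). Klk10, a kallikrein of epithelia, was not called either (measured difference -2.09, adjusted p = 0.279). It was under background on all Sfrp1_KO arrays and at 5.48, 6.03 and 8.65 in WT. The list median was -0.06.

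Of 13 other inhibitors and modulators, 3 rose and 1 fell (median 0.03). Thbs2, thrombospondin 2, which takes part in the clearance of MMP2, rose by 2.04 (SE 0.24). Pcolce, an enhancer of procollagen processing, rose by 1.52 (SE 0.25) and Rarres1, a gene induced by retinoids, by 1.98 (SE 0.21). Serpinb2, an inhibitor of plasminogen activators, was at 4.87, 5.03 and 4.92 in Sfrp1_KO, at or under background, against 11.47, 8.0 and 8.97 in WT. By the group means it fell by at least 4.41 (adjusted p = 0.0409). The WT arrays varied widely, and the measured difference was -4.54 with a limma interval of -6.51 to -2.56. Without any 1 array it ran from -5.28 to -3.54, so a smaller fall is possible. Reck, a membrane-bound MMP inhibitor, was not called (0.35, adjusted p = 0.318), nor were Thbs1, thrombospondin 1 (-2.89, adjusted p = 0.149), and Cst3, cystatin C (0.65, adjusted p = 0.330).

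Among 14 partners of ADAM trafficking and of invadopodia, Tspan5, a tetraspanin that carries ADAM10 to the cell surface, rose by 1.05 (SE 0.13, adjusted p = 0.0136). It was at 6.95, 7.42 and 7.08 in Sfrp1_KO, against 6.18, 6.06 and 6.05 in WT. Sh3pxd2b, the adaptor TKS4 of invadopodia, rose by 0.64 (SE 0.12, adjusted p = 0.0405). The other tetraspanins of this group, Tspan10, Tspan14, Tspan15, Tspan17 and Tspan33, and the iRhom genes Rhbdf1 and Rhbdf2, which carry ADAM17, were not called. The list median was -0.18.

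Known substrates of ADAM sheddases differed in both directions, with 4 of 24 called higher and 6 lower (median -0.10). Betacellulin (Btc), an EGF receptor ligand, was at 7.71, 8.02 and 7.45 in Sfrp1_KO, against 5.30, 5.84 and 5.80 in WT, and rose by 2.08 (SE 0.20, adjusted p = 0.00602). Il6ra (1.55, SE 0.15), Tnfrsf1b (1.52, SE 0.20) and Kitl (1.06, SE 0.18) rose as well. Cdh1 (-4.38, SE 0.13), Cd44 (-3.44, SE 0.49), the syndecan gene Sdc1 (-2.31, SE 0.15) and Notch1 (-1.23, SE 0.23) fell. L1cam fell by at least 0.34 and Fgfr2 fell by at least 0.35, both to background in Sfrp1_KO.

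Of 26 matrix substrates 4 rose and 4 fell (median 0.01). Vcan, versican, a substrate of several ADAMTS enzymes, was at 7.25, 7.97 and 7.47 in Sfrp1_KO, against 5.91, 5.58 and 5.67 in WT, and rose by 1.84 (SE 0.20, adjusted p = 0.00825). Lrp1, the endocytic receptor that clears MMPs, ADAMTS enzymes and TIMPs, rose by 1.86 (SE 0.30), and Fn1 and Nid1 rose by 5.49 and 4.11. Tnc, Col17a1, Lama3 and Fbln1 fell. None of 13 related metzincins and ADAMTS-like genes was called, nor did any of the 13 reach an unadjusted p under 0.05, and their differences ran from -0.42 for Pappa to 0.22 for Adamtsl3.

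**Figure D5:**
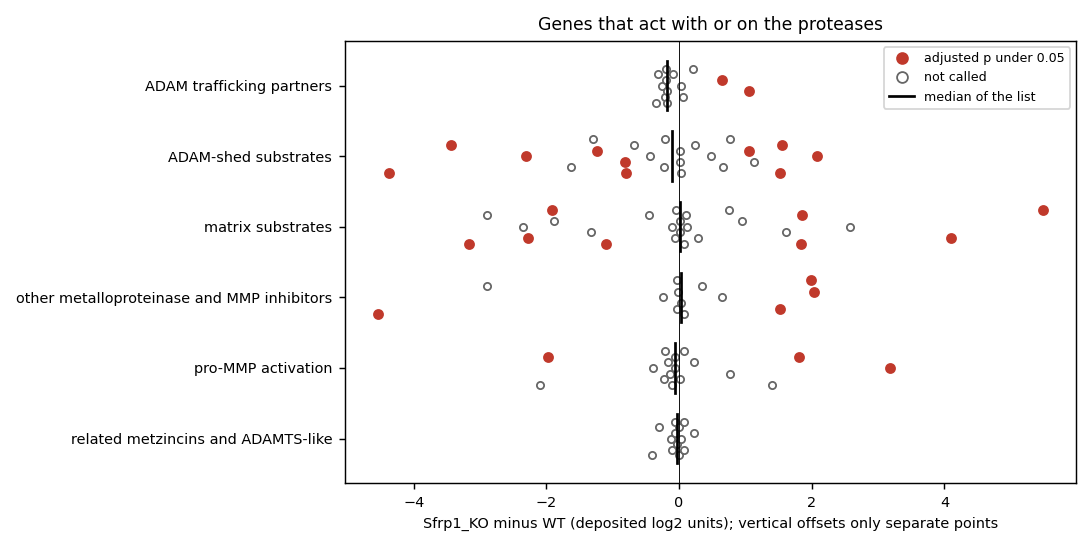
Difference (Sfrp1_KO minus WT, deposited log2 units, horizontal axis) of each measured gene of 6 lists that act with or on the proteases, with called genes filled and the list median as a vertical bar. The medians of all 6 lists lie between -0.18 and 0.03, with called genes on both sides of 0 in the lists of substrates, inhibitors and activators.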

How the data were processed

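Affymetrix MTA 1.0 arrays of 3 Sfrp1_KO and 3 WT samples were compared, with groups and replicate numbers from the sample titles. The deposited table holds log2 signals that the authors made; the submitters' processing notes name RMA and Affymetrix Expression Console. The sources used here do not say which versions and build were used. Of 72688 features 6732 were controls, and 30604 had 1 symbol in the platform annotation (2146 several, 33206 none listed). Symbols were updated by gene identifier through RefSeq GRCm38.p6 (22818 matched, 827 changed, 0 of them among the 69 genes). The brightest feature of each gene was kept, which gave 30142 genes with no filter. Overlapping genes were read from RefSeq without strand, and 35 of the 69 genes overlap another gene.

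The difference between the genotypes was fitted per gene by lmFit and eBayes (limma 3.58.1, R 4.3.3), two-sided, with Benjamini-Hochberg adjustment over the 30142 genes. The genes and lists were chosen with earlier results of these data known. Named were all called genes, up to 3 further genes per class by level, and the 6 largest differences whose arrays separate. The fit was tested on simulated data, with changes placed in genes above the median level. It recovered 31 of 50 changes of 1 log2 unit, 43 of 50 of 2 units and 46 of 50 of 4 units, with 7 false calls. Many changes of 1 unit or less can therefore be missed. Alternatives were the replicate block, dim genes left out, the mean of all features, quantile normalization once more, array medians subtracted, weights per array, a trended and robust eBayes, no moderation, all features, a minimum difference of 1 log2 unit, and each array left out. The number of arrays limits the precision.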

Additional observations from a re-analysis of the deposited data

How the results depend on the processing

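Under the 16 alternatives, the count of genes called higher was 6 to 9 with dim genes left out, the mean of all features, quantile normalization once more, array medians subtracted, weights per array, a trended and robust eBayes, and all features. It was 3 with the replicate number as a block, 4 with a minimum difference of 1 log2 unit and 0 without moderation, where 0.0464% of all genes were called higher. Without 1 array it was 3 to 8: 3 without Sfrp1_KO replicate 1, Sfrp1_KO replicate 2, WT replicate 1 or WT replicate 2, 4 without WT replicate 3 and 8 without Sfrp1_KO replicate 3. The count called lower was 0 in every alternative except without WT replicate 3, where it was 3 (range 0 to 3), and these were Mmp13, Mmp10 and Adam8. The labels do not say whether the numbers pair the samples, and 3 arrays per genotype cannot decide it, since their deviations constrain each other. Deviations from the group means of same-numbered arrays correlated at 0.18, -0.122 and 0.171. Sfrp1_KO replicate 1 correlated best with WT replicate 1, and Sfrp1_KO replicates 2 and 3 with WT replicates 1 and 2. Subtracting array medians ended the call of Adamts14 (adjusted p = 0.0639), and testing all features ended those of Adamts14 and Adam33 (0.0721 and 0.0643). Some differences that were not called changed sign. Without 1 array, Adam10 ran from -0.15 to 0.08, Adam17 from -0.10 to 0.09, Adam32 from -0.10 to 0.05, Mmp28 from -0.06 to 0.00 and Mmp3 from -0.95 to 0.38. Adam10 was at 0.04 after quantile normalization once more and 0.00 with array medians subtracted, Adam17 at 0.02 and Mmp28 at 0.01 after quantile normalization once more, and Mmp3 at 0.37 with array weights. Adamts4, Adamts10, Adam32 and Mmp12 have no value with dim genes left out. The cause of these changes was not tested. Genes at background on all arrays have no measured difference here.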
